A study of Beta vulgaris with 6 samples.

Results

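Sugar beet (Beta vulgaris altissima) transcripts that were detected in the shoot apical meristem of exactly 1 of 6 genotypes numbered 231, out of 29094 features whose names begin with P on a custom array, and out of 53752 non-control features in all. Features named with P carry accessions of expressed sequences or genes in the study's own annotation, whereas those named with O carry contig names. The members were selected on these values themselves, that is on the detection marks and the levels described here. A transcript was taken as detected where the scanner software marked its spot as well above background. It entered the set where this mark was present on all arrays of 1 genotype and absent from all arrays of the other 5, and where its level in that genotype was at least 2 log2 units above the highest of the other 5 levels. Level here is the log2 intensity minus the 75th percentile of log2 intensity of the array, averaged over the arrays of a genotype.

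The bolting-resistant plants were genotypes 1, 4 and 7, and the bolting-sensitive plants were genotypes 2, 3 and 5. All were biennial. Growth at 22 °C with 16 h of light lasted 8 weeks and was followed by 9 weeks at 4 °C, and every sample carried this cold treatment. RNA of 1 meristem sample per genotype was labelled with Cy3. Genotypes 1, 4, 2 and 5 had 1 array each and genotypes 7 and 3 had 2 each, or 8 arrays in all. A difference between genotypes therefore cannot be told apart from a difference between individual samples, and the 2 arrays of a genotype give technical spread only.

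Vernalization is the gain of the ability to flower through winter cold. A biennial beet stays a leafy rosette until it has been vernalized, and then bolts, that is, it sends up a flowering stem. The shoot apical meristem is the group of dividing cells at the tip of the shoot that produces leaves and, after vernalization, the organs of the inflorescence. Each array feature is an oligonucleotide that binds labelled RNA complementary to it. A feature at background means that no such RNA was measured there, and whether the genotypes differ in sequence under these features was not tested. In tissue samples of this kind, fewer cells of a type and less RNA per cell cannot be told apart.

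The 8 arrays were alike in depth of detection: between 42.6% and 45.0% of spots were well above background, and the lowest intensity with this mark was between 17.3 and 30.2. No spot was saturated. Of the P-named features, 27927 gave the same mark on all arrays of each genotype. Among these, 19812 were detected in all 6 genotypes, 5435 in none, 786 in 5, 461 in 4, 400 in 3, 351 in 2 and 682 in 1. Of those 682, 451 did not reach the limit of 2 log2 units, which left 231. They made up 0.794% of the P-named features, a share that depends on the limits set in the rule. Of the features named with O, 2.28% met the same rule. The bases of these 2 shares differ: for genotype 1, 5613 P-named and 21055 O-named features were undetected in the other 5 genotypes. Of those, 1.21% and 0.541% met the rule. On that base the O-named share was the higher one in genotype 4 only.

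Genotype 1 had the most such transcripts, 68, followed by genotype 5 with 57, genotype 2 with 41, genotype 4 with 37, genotype 3 with 15 and genotype 7 with 13. When another genotype is left out, 4 genotypes remain to be undetected in. Relative to their size, the numbers of genotypes 7 and 3 then moved most. In absolute number, genotypes 1 and 5 moved more: genotype 1 had 96 without genotype 5, and genotype 5 had 78 without genotype 1. Genotype 7 then had 28 without genotype 1, 26 without genotype 4, 25 without genotype 2, 24 without genotype 5 and 18 without genotype 3, and 23 with scaling to the array median. Genotype 3 had 25 without genotype 2, and 19 to 21 without genotypes 1, 4, 7 or 5. Genotype 7 was then above genotype 3 without genotypes 1, 4 or 5 and level with it without genotype 2, and in each of these settings both were below the genotypes with 1 array. By bolting class, 118 were detected in a resistant genotype and 113 in a sensitive genotype. The mean was 39.3 ± 27.6 transcripts per resistant genotype and 37.7 ± 21.2 per sensitive genotype (SD, n = 3 each). The difference of 1.67 transcripts was smaller than the spread between genotypes of a class (exact permutation test, two-sided, p = 1, where the smallest p that 3 against 3 allows is 0.1). Its direction turned when genotype 1 was left out (-13.7) or genotype 3 was left out (-11.3).

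The 2 genotypes with 2 arrays had the fewest. In these a transcript had to be detected on both arrays, and they held 28 of the 231, against 203 in the 4 genotypes with 1 array. With only the first array of genotypes 3 and 7, genotype 7 had 42 and genotype 3 had 43, beside 65, 37, 39 and 60 in genotypes 1, 4, 2 and 5. With only the second array, genotype 7 had 31 and genotype 3 had 25. The counts of all genotypes then lay between 25 and 66.

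**Figure D1:**
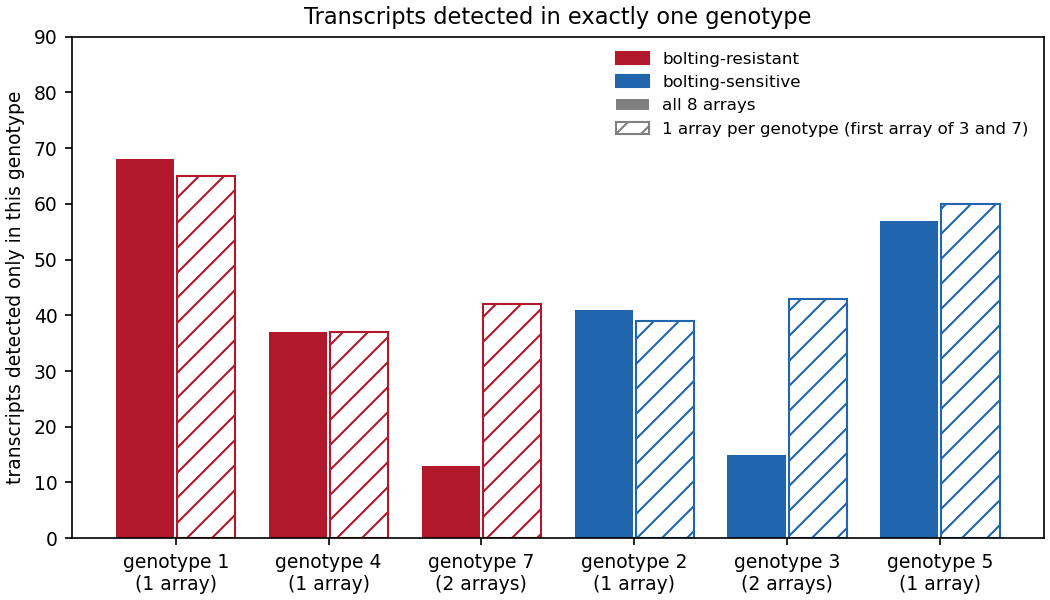
Number of transcripts detected in exactly 1 genotype (vertical axis, count) for each genotype, with resistant genotypes in red on the left and sensitive genotypes in blue on the right. Filled bars use all 8 arrays and hatched bars use 1 array per genotype: the filled bars of genotypes 7 and 3 stand at 13 and 15, and their hatched bars at 42 and 43.

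The second arrays of genotypes 3 and 7 gave a reading of the same RNA that the choice with the first arrays had not used. Of the 42 transcripts that the first array placed in genotype 7 alone, 13 were detected on its second array (31.0%), and of the 43 placed in genotype 3 alone, 16 were detected (37.2%), or 29 of 85 together (34.1%). In the opposite direction, 17 of 31 transcripts of genotype 7 and 15 of 25 of genotype 3 were found on the first array, or 32 of 56 together (57.1%). Transcripts that were found again had nearly the same level on both arrays, with a median difference of 0.12 log2 units.

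The transcripts that were not found again were by definition not well above background on the second array, so their signals there are given as measured and have no order. The 29 of genotype 7 had first-array levels between -3.86 and -0.50, and second-array levels with a median of -6.44 and a highest value of -4.39. The 27 of genotype 3 had first-array levels between -3.34 and 0.67, and second-array levels with a median of -5.86 and a highest value of -3.71. The level on the first array went with repeat detection: 12 of 49 transcripts below -2 were found again, 12 of 30 between -2 and 0, and 5 of 6 above 0. By difference to the highest other genotype, 11 of 44 with 2 to 3 log2 units were found again and 14 of 33 with 3 to 5. With 5 units and over it was 4 of 8, and 5 of 8 from second to first array. The largest difference that was not found again was 6.60 units. These ranges of level and difference were chosen after the values had been seen.

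**Figure D2:**
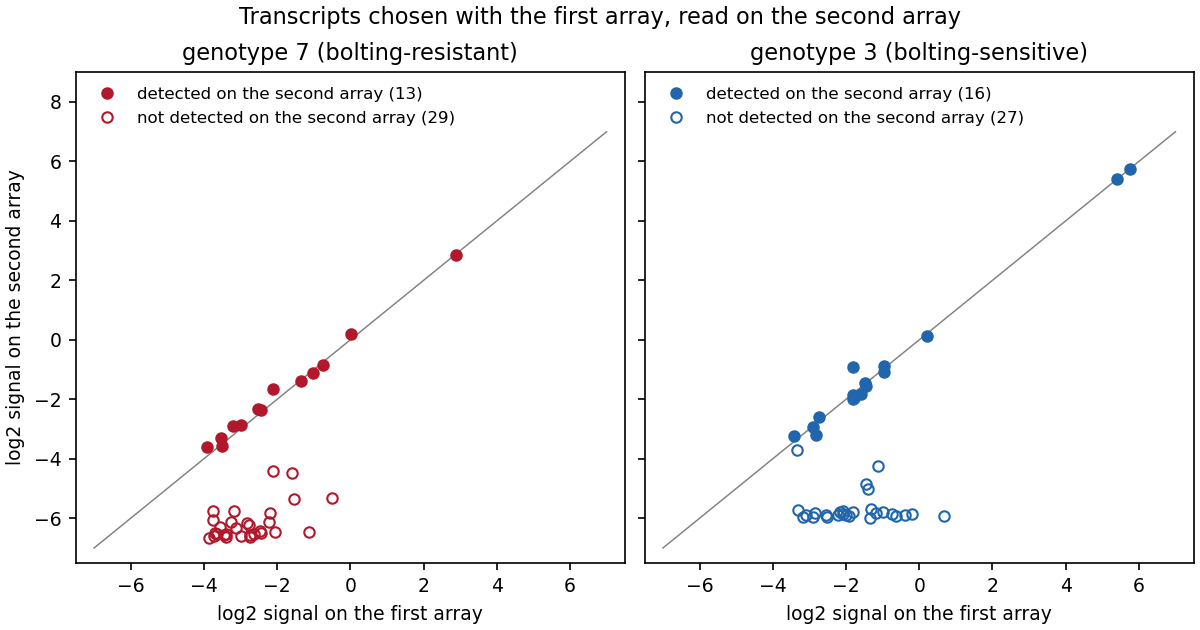
Log2 signal minus the 75th percentile on the first array (horizontal axis) and on the second array (vertical axis) for the transcripts that the first array placed in genotype 7 alone (left, 42) or genotype 3 alone (right, 43). The grey line marks equal values: the 13 and 16 filled points, detected on both arrays, lie along it, and the 29 and 27 open points, not detected on the second array, lie near the bottom of the plot.

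Repeat detection was the more frequent, the more genotypes shared a transcript. Without the limit of 2 log2 units, 37.6% of 255 transcripts seen in genotype 7 alone on the first arrays were detected on its second array, and 37.6% of 85 seen in genotype 3 alone. In genotype 7 the share was 69.0% for transcripts seen in 2 genotypes, 82.7% in 3, 89.0% in 4, 96.8% in 5 and 99.8% in all 6. In genotype 3 it was 68.2% for 2 genotypes, 83.1% for 3, 86.6% for 4, 93.4% for 5 and 99.6% for all 6. Transcripts missing from 1 genotype alone were also repeated more often: 76.1% of 71 for genotype 7 and 74.8% of 274 for genotype 3 were again undetected on the second array. This breakdown was chosen after the data had been seen.

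**Figure D3:**
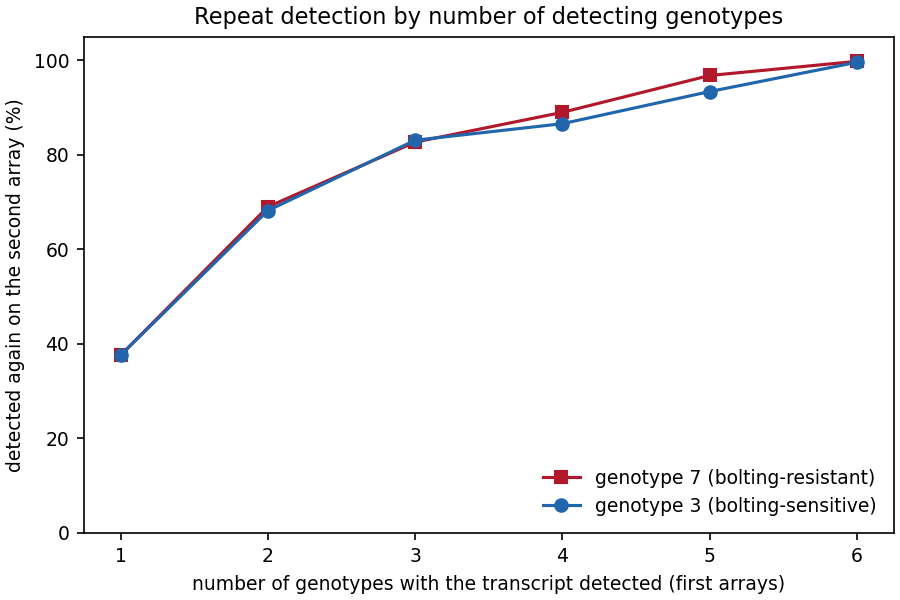
Share of transcripts detected on the first array of genotype 7 (red squares) or genotype 3 (blue circles) that were detected again on the second array (vertical axis, percent), against the number of genotypes in which the first arrays detected them (horizontal axis). Both lines start at 37.6% for 1 genotype and end at 99.8% and 99.6% for 6.

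The 28 transcripts of genotypes 7 and 3 rest on 2 hybridizations each, and their duplicate levels lay close together. The median difference between the 2 arrays was 0.14 log2 units over the 13 transcripts of genotype 7, with a largest difference of 0.47, and 0.10 over the 15 of genotype 3, with a largest difference of 0.39. The rule required the mark on both arrays but placed no limit on this difference. Folds are lower limits from here on. Since the other genotypes were not well above background, each fold is stated as at least the level in the detecting genotype over the highest of the other 5, with each array of those raised to its lowest signal well above background where it lay under it. All of these values also served to choose the transcripts and are descriptions, without a test.

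In genotype 3, P10840 and P10924 stood far above the other 13. P10840 had levels of 5.77 and 5.74 on the arrays of genotype 3, against -6.14 in genotype 2, -6.36 in genotype 5, -6.49 in genotype 1, -5.80 in genotype 4 and -6.68 and -5.92 in genotype 7. It was at least 778-fold higher in genotype 3, and its level exceeded that of 90.4% of the P-named features detected there. P10924 had levels of 5.41 and 5.42 in genotype 3, against -5.76 in genotype 2, -4.06 in genotype 5, -6.12 in genotype 1, -5.78 in genotype 4 and -4.62 and -5.30 in genotype 7, a difference of at least 615-fold. For both transcripts, no other genotype of either class was well above background, and signals under that mark have no order.

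P19244, the next transcript of genotype 3, had levels of 0.21 and 0.12 there and between -6.67 and -5.47 in the other genotypes, a difference of at least 16.2-fold. The remaining 12 transcripts of genotype 3 had levels between -3.32 and -0.92. Of the 15, 9 exceeded a lower limit of 4-fold.

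In genotype 7, P1549 was the highest. It had levels of 2.89 and 2.86 on the arrays of genotype 7, against -6.39 in genotype 1, -6.03 in genotype 4, -6.03 in genotype 2, -5.99 and -6.02 in genotype 3 and -6.03 in genotype 5, or at least 104-fold more. The resistant and sensitive genotypes that did not detect it all lay between -6.39 and -5.99. P1578 had levels of 0.02 and 0.18 in genotype 7 and between -6.09 and -4.84 in the other genotypes (at least 15.2-fold). P9483 had levels of -0.74 and -0.83 in genotype 7 and between -6.14 and -4.96 elsewhere (at least 8.23-fold). The remaining 10 had levels between -3.75 and -1.07, and 5 of the 13 exceeded a lower limit of 4-fold.

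The 2 brightest transcripts of the set were in genotype 1, which had no second array to read them on. P2298 had a level of 10.63 in genotype 1, the highest of all P-named features on that array, against -4.78 in genotype 4, -5.64 and -4.96 in genotype 7, -5.22 in genotype 2, -5.26 and -5.77 in genotype 3 and -4.56 in genotype 5. The difference was at least 22438-fold. In each of the other 5 genotypes its signal was marked as positive and significant on at least 1 array, a lower bar than well above background. P25797 had a level of 9.90 in genotype 1, against -4.97 in genotype 4, -4.91 and -5.02 in genotype 7, -4.42 in genotype 2, -6.03 and -6.06 in genotype 3 and -5.28 in genotype 5, or at least 13553-fold more. These 2 spots lay close together on the array, at row 147, column 42 and row 151, column 43. Within 5 rows and columns, 5 features near P2298 and 6 near P25797 were at least 2 log2 units higher in genotype 1 than in every other genotype. These numbers include the 2 transcripts as neighbours of each other. Another feature of the same pattern, O10311, lay near P25797. It had a level of 10.26 in genotype 1, 16.1 log2 units above the highest of the others.

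P1489, the next in genotype 1, had a level of 5.48 there and between -6.18 and -4.27 in the other genotypes, or at least 631-fold more. No other feature within 5 rows and columns of it had the same pattern. Genotype 1 held 14 of the 29 transcripts with a level above 0.

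In genotype 4, P2107 had a level of 3.74, against -6.23 in genotype 1, -6.42 and -6.35 in genotype 7, -5.89 in genotype 2, -5.47 and -5.85 in genotype 3 and -5.95 in genotype 5, or at least 190-fold more. P18187 had a level of 1.90 in genotype 4 and between -6.50 and -4.18 elsewhere (at least 53.1-fold), with O17051 of the same pattern near it. P13089 had a level of 0.27 in genotype 4 and between -6.44 and -5.29 elsewhere (at least 17.1-fold).

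In genotype 2, P21849 had a level of 6.48, against -6.26 in genotype 5, -6.02 and -6.00 in genotype 3, -6.40 in genotype 1, -6.02 in genotype 4 and -6.57 and -6.53 in genotype 7. The difference was at least 1266-fold, and no array of the other genotypes had a signal that the software marked as positive and significant, which is a lower bar than well above background. P1359 had a level of 4.00 in genotype 2 and between -6.38 and -5.84 elsewhere (at least 227-fold), again with no positive and significant signal elsewhere. P24243 had a level of 1.78 in genotype 2 and between -6.40 and -5.99 elsewhere (at least 48.7-fold).

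In genotype 5, the highest level was below the highest of each other genotype. P16067 had a level of 1.94 in genotype 5 and between -6.67 and -6.11 elsewhere (at least 54.6-fold), with no positive and significant signal elsewhere. P11189 had a level of 1.60 in genotype 5 and between -6.38 and -5.04 elsewhere (at least 43.0-fold). P1081 had a level of 0.66 in genotype 5 and between -6.29 and -5.11 elsewhere (at least 22.3-fold), and 3 features of the same pattern lay within 5 rows and columns of it.

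**Figure D4:**
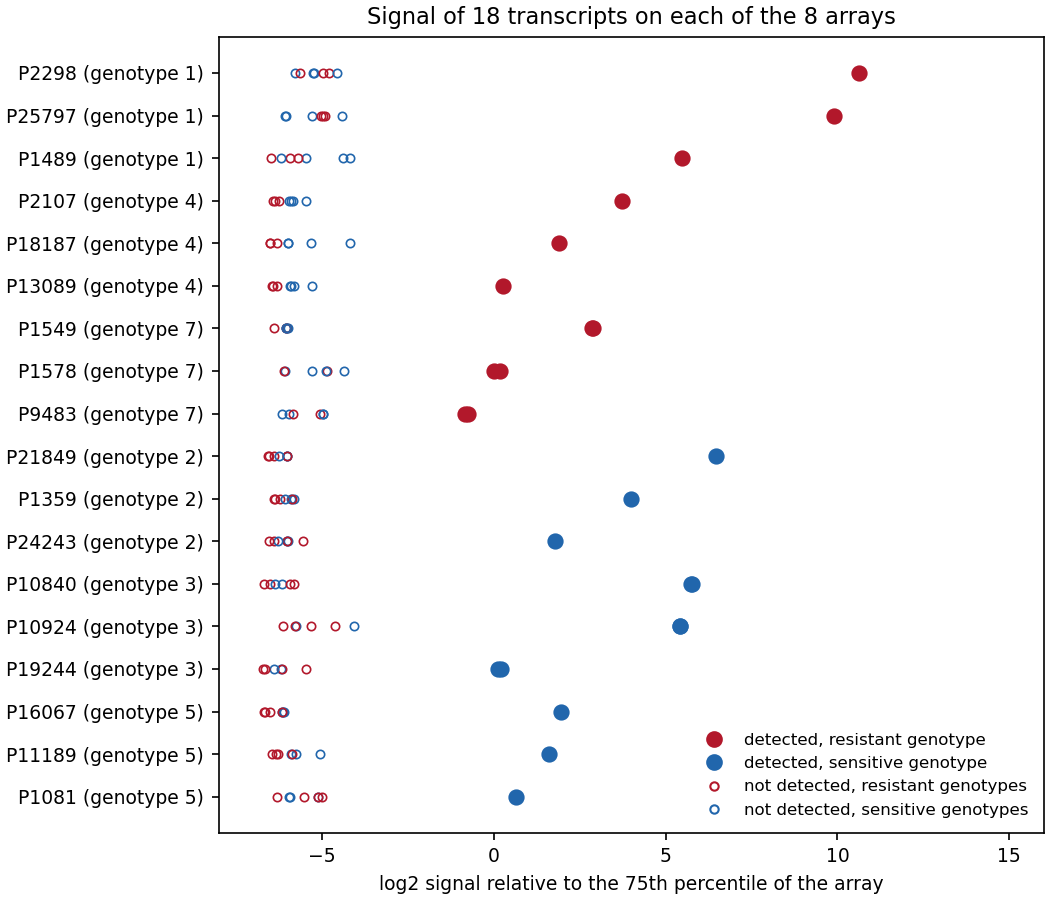
Log2 signal minus the 75th percentile (horizontal axis) for the 3 transcripts with the highest lower limit in each genotype (rows), on each of the 8 arrays. Filled points are the arrays of the genotype in which the transcript was detected and open points are the arrays of the other 5 genotypes (red, resistant and blue, sensitive): the filled points range from -0.83 for P9483 to 10.63 for P2298, and all open points lie below -4.

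The 18 transcripts described so far are the upper end of the set, and most of the 231 were dim. The median level was -2.28, against 1.10 for the 19812 P-named features detected in all 6 genotypes. Of the 231, 183 (79.2%) lay in the lowest 25% of the features detected in their genotype, 21 lay in the upper part above the median, and 29 had a level above 0. The median level by genotype was -2.26 in genotype 1, -2.27 in genotype 4, -2.41 in genotype 7, -2.03 in genotype 2, -1.70 in genotype 3 and -2.75 in genotype 5.

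The difference to the highest of the other genotypes had a median of 2.86 log2 units, just above the limit, and exceeded 4 units in 58 transcripts and 8 units in 12. P24823, just inside the limit, had a level of -4.04 in genotype 1 and -6.05 in the highest of the others, 2.01 units apart. P3895, just outside it, had -3.10 in genotype 5 and -5.10 in the highest of the others, which rounds to a difference of 2.00 and lies below the limit. By the lower limit, 159 transcripts exceeded 2-fold, 80 exceeded 4-fold and 25 exceeded 16-fold, and no fold could be given for 4.

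Signals in the other genotypes were also read by the lower bar of positive and significant. How often other undetected P-named features carry that mark was not counted, so the numbers describe these transcripts only. In 56 of the 231 (24.2%), no other genotype had a positive and significant signal, and in 40 such a signal was found in 4 or 5 of the others. Among the transcripts named above for each genotype, P2298 had it in 5 others, and P25797, P1489 and P1578 in 4. P21849, P1359 and P16067 had it in none, and the rest in 1 to 3. The 56 were divided as 14, 9 and 5 in genotypes 1, 4 and 7 and 12, 3 and 13 in genotypes 2, 3 and 5, which is 28 in each class. Another background correction (normexp) was run on the median spot signal and the local background in place of the processed signal, with an offset of 50 intensity units added. With it, 34 of the 231 kept a difference of 2 log2 units. The offset by itself narrows log2 differences between dim signals, so this count does not measure signal in the other genotypes.

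The positions of the spots on the array were read for all 231, since each feature was printed at the same place on every array. Of the transcripts of genotypes with 1 array, 115 of 203 (56.7%) had another feature with the same pattern in the same genotype within 5 rows and columns, against 1 of 28 (3.57%) in the genotypes with 2 arrays. By genotype the number was 34 of 68 in genotype 1, and the share was 59.5% in genotype 4, 7.69% in genotype 7, 46.3% in genotype 2, 0% in genotype 3 and 70.2% in genotype 5. Among all P-named features, whatever their own values, the share near such a feature was 17.0% for genotype 1, 19.9% for genotype 4, 3.62% for genotype 7, 10.3% for genotype 2, 4.38% for genotype 3 and 23.6% for genotype 5. The part of array position in these detections was not tested, and the distance was chosen after the data had been seen.

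The outer rows, taken as 10% of the 384 rows at each end, held 81 of the 231 (35.1%), against 20.3% of all P-named features. By genotype the share was 35.3% in genotype 1, 24.3% in genotype 4, 7.69% (1 of 13) in genotype 7, 51.2% in genotype 2, 33.3% in genotype 3 and 36.8% in genotype 5. Genotype 3, with 2 arrays, thus lay within the range of the genotypes with 1 array. Without the transcripts of the outer rows, 150 were left, and without those near a feature of the same pattern, 115 were left, divided as 34, 15 and 12 in genotypes 1, 4 and 7 and 22, 15 and 17 in genotypes 2, 3 and 5. The 2 genotypes with 2 arrays lost 1 transcript in the second selection.

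**Figure D5:**
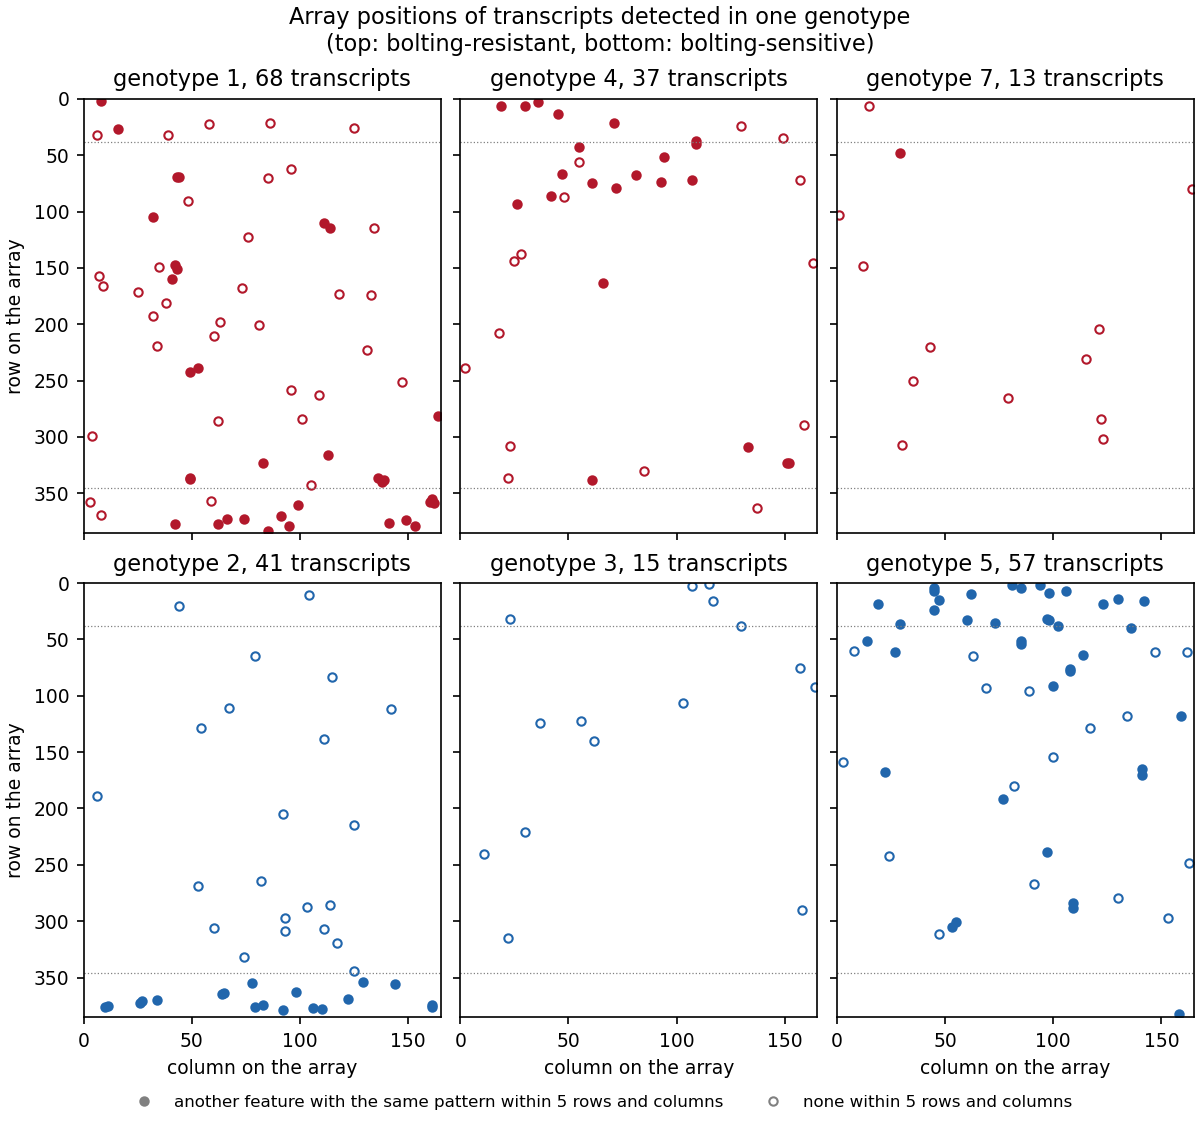
Row (vertical axis) and column (horizontal axis) on the array of the transcripts detected in each genotype alone, with resistant genotypes above in red and sensitive genotypes below in blue. Filled points have another feature with the same pattern within 5 rows and columns, open points have none, and dotted lines bound the outer rows: filled points gather along the lower edge in genotypes 1 and 2 and in the upper rows in genotypes 4 and 5.

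The set was also compared with the opposite pattern. P-named features undetected in exactly 1 genotype, at least 2 log2 units below the lowest of the other 5, numbered 296 (1.02%), with 54, 55 and 37 in genotypes 1, 4 and 7 and 44, 73 and 33 in genotypes 2, 3 and 5. Here genotype 3, with 2 arrays, had the most, and genotype 5, with 1 array, the fewest.

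The comparison of bolting classes was one of class means. A transcript detected in 1 genotype can shift the mean of its class, but it does not separate all resistant from all sensitive genotypes. With the flag filter of the study's methods, which requires detection in all genotypes of a class, none of the 231 could enter the fit (limma, 389 of 22314 filtered features, 1.74%, passed the unadjusted p and a 2-fold limit, and 18, 0.0807%, after Benjamini-Hochberg adjustment). Without the filter, 1 of the 231 (0.433%) passed the unadjusted threshold, against 1.44% of all 53752 features, and 0 passed after adjustment, against 0.0223%. The 1 transcript was P20543, detected in genotype 2 alone, with a class mean of -6.41 in resistant and -4.20 in sensitive genotypes (limma fit across all features, Benjamini-Hochberg adjusted p = 0.767). The fit without the filter used the same values that chose the 231. A single high value among low ones widens the spread within its class, so the choice itself works against a call. These shares are descriptions, and no conclusion on bolting class is drawn from them.

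None of the 231 transcripts is among the 169 features for which the study's list of class differences gives an accession. This was fixed in advance, since the study's flag filter requires detection in all genotypes of a class. The 231 are therefore named here by feature only, and no gene name, genome position or sequence is given for them.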

How the data were processed

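Total RNA of shoot apical meristems was hybridized to a custom Agilent array with 1 colour. The authors deposited a scanner file per array (Feature Extraction 10.7) that gives linear Cy3 intensity per spot after background subtraction and spatial detrending, with 0 or 1 quality flags and no scaling between arrays. They also deposited a table of log2 values, scaled per array to the 75th percentile and centred per probe on the median. Of its values, 99.99% lay within 0.05 of the same quantity computed here from the first arrays. The medians of its columns lay between -0.25 and 0.10. The depth of an array has no count, and the number of genotypes limits the precision.

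Log2 intensities were scaled by subtracting the 75th percentile of the non-control spots on the same array, and spots and then duplicate arrays were averaged. Groups were taken from the sample labels. All arrays were on 1 slide, so array position on the slide and genotype cannot be told apart. The members and lists were chosen with earlier results of these data known. Named transcripts are the 3 per genotype with the highest lower limit, the features on either side of the 2 log2 limit, and any member with an accession in the study's supplementary list (none was found, 0 of 231). P20543, O10311, O17051, T12 and V1 were named after their values had been seen. Bolting classes were compared with an exact permutation test of counts (scipy 1.17.1) and with limma 3.58.1 in R 4.3.3, as resistant minus sensitive genotypes, on the whole table; Python 3.11.15 with pandas 2.3.3, numpy 2.4.6 and matplotlib 3.10.9, and the R package data.table (version 1.17.8), were used for the rest. The rule and the fit were tested on simulated data. The alternatives were quantile and median scaling, normexp with an offset of 50 on the median spot signal and local background (a change of input signal as well), the background limit of 2.6 SD recomputed from the pixel SD of the local background, other flags and limits, 1 array of genotypes 3 and 7, and each genotype left out in turn. The authors' log2 table and the selections by array position were added after the data had been seen.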

Additional observations from a re-analysis of the deposited data

Results flagged for a closer look

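Features outside the 231 transcripts met the same rule. Of the 24555 features named with O, which carry contig names, 561 (2.28%) were detected in exactly 1 genotype: 114, 155 and 10 in genotypes 1, 4 and 7, and 67, 9 and 206 in genotypes 2, 3 and 5. On the second arrays of genotypes 3 and 7, 20 of 235 O-named features placed in 1 of these genotypes by the first array were found again (8.51%), and 16 of 122 in the opposite direction (13.1%). By genotype the share was 8.80% in genotype 7 and 8.18% in genotype 3 from first to second array, and 8.75% in genotype 7 and 21.4% in genotype 3 from second to first. The outer rows of the array held 70.2% of these features in genotype 1, 27.7% in genotype 4, 5 of 10 in genotype 7, 80.6% in genotype 2, 22.2% in genotype 3 and 40.3% in genotype 5, against 19.8% of all O-named features.

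Of 308 negative control spots, 5 (1.62%) met the rule, 2 in genotype 1 and 3 in genotype 2, and 0 in the other 4 genotypes. Among features not detected in the other 5 genotypes, the share that met the rule was 1.21% of P-named and 0.541% of O-named features in genotype 1, 0.668% and 0.736% in genotype 4, 0.225% and 0.0468% in genotype 7, 0.743% and 0.320% in genotype 2, 0.270% and 0.0426% in genotype 3, and 1.01% and 0.971% in genotype 5. Of 44 T-named features, 1 met the rule, T12 in genotype 2, with a difference of 3.31 log2 units, and of 38 V-named features, 1 met it, V1 in genotype 3, with 3.09.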

How the results depend on the processing

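The count of 231 transcripts was within 1.5 times of itself under quantile scaling, median scaling, the recomputed background limit, the removal of outlier spots, the use of 1 array of genotypes 3 and 7, the count of any detected spot and the authors' log2 table (228 to 286), and when each genotype was left out (221 to 274). It was 398 with a limit of 1 log2 unit, 108 with 3 units, 80 against the signal raised to the lowest well above background, 56 with no positive and significant signal elsewhere, 34 with normexp, 150 without the outer rows and 115 without transcripts near a feature of the same pattern. A similar count does not mean the same members. When a genotype is left out, its transcripts leave the set and others enter. The 221 without genotype 1 held 163 of the 231, and the 238 without genotype 5 held 174. The difference in count per genotype, resistant minus sensitive, was 1.67 and turned to -0.667 with the authors' log2 table, was 0 with no positive and significant signal elsewhere, and ranged from -13.7 to 19.5 when a genotype was left out. The share found on the second array was 34.1%, and 57.1% with the arrays in the opposite order or 45.8% without the outer rows. The count of transcripts called between classes was 0 in all fits with the flag filter, the methods' t-test in both forms included, by the construction of the filter, and 1 without it. The causes of these changes were not tested beyond the construction of each alternative. No paired analysis was possible because the labels give no number that pairs a resistant with a sensitive genotype, and the replicate numbers 1 to 3 used here within each class only follow the order of the samples. Levels near background limit the set: a signal below the lowest well above background has no order, and 203 of the 231 transcripts rest on 1 spot of 1 array.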
